A study of Mus musculus with 8 samples.

Results

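Cytoplasmic ribosomal protein genes encode the proteins of the large (Rpl) and small (Rps) subunit of the ribosome that translates nuclear mRNAs. Members were the protein-coding mouse genes whose symbol begins with Rpl or Rps and a number, with Rplp0, Rplp1, Rplp2 and Rpsa, leaving out the Rps6k kinases and symbols that end in l. This gave 85 genes out of 21900 protein-coding genes. By name, 8 of them are not themselves standard subunits: the paralogues Rpl7l1 and Rpl22l1, the retrogenes Rpl37rt, Rps27rt and Rps23rg1, the gene of a binding partner of RPS19 (Rps19bp1), and Rpl34-ps1 and Rpl31-ps12, which carry pseudogene symbols but are annotated as protein-coding. The other 77 are called core genes, 46 of the large and 31 of the small subunit. The members lie on 19 chromosomes.

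H2A.Z is a variant of histone H2A found in the nucleosomes that flank the stretch free of nucleosomes just before the start of active genes. ZNHIT1 is a subunit of the SRCAP complex, which exchanges H2A for H2A.Z. Ribosomal protein genes are short, are transcribed in every dividing cell, and mostly start at a pyrimidine-rich sequence that is carried into their mRNAs. In male meiosis the X chromosome is silenced, and autosomal copies of some X-linked ribosomal protein genes are active in the testis.

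H2A.Z chromatin immunoprecipitation and sequencing was done on cells of whole mouse testes taken at postnatal day 14, with 2 immunoprecipitates and 2 inputs from Znhit1-CKO testes (conditional knockout, Znhit1-sKO in the protocol) and 2 and 2 from control testes. For the Cre driver, the strain and the alleles of the controls, nothing is stated in the labels used here. The data are 1 peak list per genotype, 31156 Znhit1-CKO and 48752 control peaks, and the authors' list of 24367 differential regions, which states no direction. All regions given below by position are 400 bp wide, so their edges do not measure how far a change reaches. The lists hold positions only, so the depth behind a peak is unknown and no value below has a replicate error or a test. A site leaves a list when it no longer passes a threshold, and in whole testis a change in the mix of cells cannot be told apart from a change within them. Germ cell markers had a Znhit1-CKO peak at a gene end in 5 of 12 and a control peak in 11 of 12, Sertoli cell markers in 5 and 7 of 9, and Leydig cell markers in 1 and 2 of 6. Over all protein-coding genes it was 60.4% and 67.6%. The germ cell markers with a control and no Znhit1-CKO peak were Sycp1, Sycp3, Stra8 (205 bp in control), Mael, Tex101 and Piwil1, most of them meiotic or spermatocyte genes, and Piwil2 had neither. Ddx4, Dazl, Kit, Zbtb16 and Gfra1 had both, but at Ddx4 the peak was 291 bp in Znhit1-CKO and 1186 bp in control. The share of the widest control peak under Znhit1-CKO peaks was 24.5% at Ddx4 and from 51.4 to 94.0% at the others. Among Sertoli cell markers with both, it was 16.8% at Wt1 and from 58.6 to 74.5% at the others. The Sertoli cell markers Clu and Cldn11 and the Leydig cell marker Lhcgr also had a control peak alone. A peak at a marker gene does not measure expression, and the part of cell mixture in the results was not tested.

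Nearly all ribosomal protein genes carried H2A.Z at a gene end in both genotypes. A boundary peak, one within 1 kb of either gene end, was found at 77 of the 85 genes in Znhit1-CKO (90.6%, exact 95% interval 82.3 to 95.8%) and at 80 in control (94.1%, 86.8 to 98.1%). Over all protein-coding genes it was 60.4% in Znhit1-CKO and 67.6% in control. Among the core genes it was 73 and 76 of 77, and the one without a control peak was Rps2. Of the other 8 members, 4 had no control peak (Rpl37rt, Rps27rt, Rpl34-ps1 and Rpl31-ps12), with the nearest control peak between 2937 and 8664 bp away. The control peak of Rps2, which encodes a small subunit protein, missed the rule because it began 1240 bp inside the annotated gene. At the listed transcription start there, a peak of 379 bp in Znhit1-CKO, from 574 to 196 bp before the start, lay within one of 1106 bp in control that covered the start. The control peak of Rpl17, a large subunit gene, was the farthest one taken in, at 759 bp. Intervals over genes cover counting error only.

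The control boundary peak was lost at 3 genes, Rplp0, Rpl10 and Rpl18, which is 3.75% of 80 (0.780 to 10.6%). Among all 14815 protein-coding genes that had one in control, 11.5% lost theirs. All 3 are among 46 large subunit genes (6.52%, 1.37 to 17.9%), and none of 30 small subunit genes lost a peak (upper limit 11.6%). These intervals overlap, and a difference between the subunits was not tested. The count of lost peaks rests on how a match is defined: where a Znhit1-CKO peak had to share at least 50% of both widths, 15 of 80 control peaks (18.8%, against 25.3% of all genes) had no match. With peaks of at least 500 bp alone, 6 of 77 genes (7.79%, against 14.5%) lost theirs. Of the 3 genes above, only Rpl10 (866 bp in control) is among these. The widest control peaks of Rplp0 (452 bp) and Rpl18 (329 bp) are themselves under 500 bp. The others, such as Rpl27 (417 bp), had a Znhit1-CKO peak of under 500 bp.

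Rplp0 encodes the stalk protein P0, which anchors the P1 and P2 proteins of the ribosome. In Znhit1-CKO no peak lay within 1 kb of either end of the gene, and the nearest one was 1101 bp away. In control a pair of narrow peaks flanked the start of the gene on chromosome 5, one of 362 bp ending 307 bp before it and one of 452 bp beginning 35 bp after it. A differential region covered bases 70 to 469 after the start. The genes of the other stalk proteins kept their peaks. At Rplp1 the widest peak was 1100 bp in Znhit1-CKO and 1278 bp in control, and at Rplp2 it was 1200 bp in Znhit1-CKO and 1175 bp in control.

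Rpl10, an X-linked gene whose product joins the large subunit late in its assembly, had its nearest Znhit1-CKO peak 8254 bp from a gene end. Its control peak of 866 bp lay wholly before the gene, from 1074 to 209 bp before the start, and held no differential region. Rpl18 differed from these genes. The peak it lost was a 329 bp control peak beside the far 5′ end of an extended annotation. At its listed transcription start, inside that annotation, a peak of 942 bp in Znhit1-CKO lay within one of 1281 bp in control, with a differential region. Counted at the first listed start of 61 genes with a control peak there, 2 were lost (3.28%, against 10.1% of all genes with a listed start), which are Rplp0 and Rpl10.

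The promoters of Rplp0 and Rpl10, which lost all peaks near the start, are shown. The RefSeq sequences (GRCm38.p6) run from 250 bases before to 50 after the listed start, at chr5:115559217-115559516 on the plus strand for Rplp0 and chrX:74270566-74270865 on the plus strand for Rpl10. Capitals mark the pyrimidine motif CTCTTT, the ETS-type motif TTCCGG and the motif TCTCGCGA on either strand. Rplp0 holds none of them and Rpl10 holds 2, TTCCGG and CTCTTT.
Rplp0: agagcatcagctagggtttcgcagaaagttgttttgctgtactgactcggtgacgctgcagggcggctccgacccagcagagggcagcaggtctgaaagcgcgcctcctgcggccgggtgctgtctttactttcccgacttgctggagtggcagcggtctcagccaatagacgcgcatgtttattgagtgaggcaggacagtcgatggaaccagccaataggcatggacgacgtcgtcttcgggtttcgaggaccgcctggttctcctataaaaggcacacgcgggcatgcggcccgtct
Rpl10: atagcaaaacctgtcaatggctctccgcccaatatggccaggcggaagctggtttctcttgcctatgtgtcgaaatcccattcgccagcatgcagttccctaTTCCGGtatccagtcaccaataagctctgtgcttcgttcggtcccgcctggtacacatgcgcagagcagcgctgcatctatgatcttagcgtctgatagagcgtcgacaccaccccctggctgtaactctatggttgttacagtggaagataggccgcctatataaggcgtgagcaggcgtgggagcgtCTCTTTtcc

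Where a peak was kept, it was usually slightly narrower. The widest control boundary peak had a median of 1278 bp over the 80 genes (329 to 2701 bp), and the widest Znhit1-CKO boundary peak at those genes had a median of 1100 bp (348 to 2796 bp). For 68 genes the widest control peak overlapped a single Znhit1-CKO peak that overlapped no other. The log2 ratio of Znhit1-CKO over control width had a median of -0.15 (quartiles -0.42 and -0.00), against -0.22 (-0.48 and -0.06) over 11550 protein-coding genes. In 51 of the 68 pairs (75.0%, exact interval 63.0 to 84.7%, against 83.1% of all such genes) the peak was narrower in Znhit1-CKO. In 6 it was at most 50% as wide: Rpl27, Rpl38, Rpl5, Rps29, Rps3a1 and Rps15a. Over all genes 8.23% were. Under 50% of the widest control peak remained at 9 of 80 genes (11.3%, against 19.2%), which are these 6 and the 3 lost ones, and at least 90% at 28 (35.0%, against 27.3%). The share of a control peak still under Znhit1-CKO peaks had a median of 85.0% (quartiles 70.3 and 91.5%) for the ribosomal protein genes and 79.9% (60.4 and 90.9%) for all genes.

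**Figure D1:**
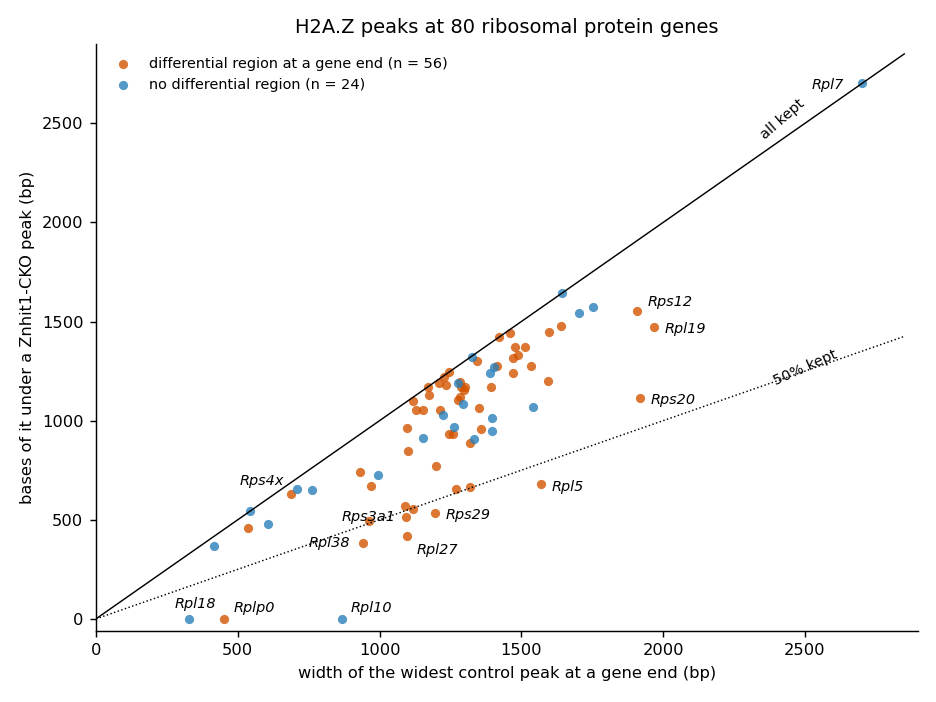
Each point is one of 80 ribosomal protein genes, with the width of its widest control peak at a gene end on the x axis and the bases of that peak under a Znhit1-CKO peak on the y axis, both in bp, in orange for genes with a differential region (56) and in blue for those without (24). Most points lie just under the solid line of full retention, 9 lie below the dotted line of 50%, and Rpl10, Rplp0 and Rpl18 lie at 0.

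The widest control peaks were largely kept. Rpl7, a large subunit gene that shares its peak with the retinol dehydrogenase gene Rdh10, had 2796 bp in Znhit1-CKO and 2701 bp in control. Rpl19 had 1471 bp in Znhit1-CKO and 1966 bp in control, and Rps12 kept 81.4% of its 1907 bp in pieces. Rpl30, with 1574 bp in Znhit1-CKO and 1753 bp in control, also kept most of its peak. At Rps20 it was 1131 bp in Znhit1-CKO and 1919 bp in control, which is the lowest share among these 5 (58.0%). Among the narrowest control peaks, Rpl27a had 494 bp in Znhit1-CKO and 537 bp in control. Rps23rg1, a retrogene, had 781 bp in Znhit1-CKO and 544 bp in control, the highest ratio of all members (log2 0.52). Wider Znhit1-CKO peaks were also called at the core genes Rpl15 (1513 bp against 1246 bp in control), Rps4x (856 bp against 709 bp), Rps13 (1312 bp against 1118 bp) and Rpl37 (1797 bp against 1643 bp). Rps6, whose protein is phosphorylated by the Rps6k kinases, had 1478 bp in Znhit1-CKO and 1421 bp in control. Rps19, the gene first linked to Diamond-Blackfan anaemia in humans, had 1369 bp in Znhit1-CKO and 1478 bp in control.

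A smaller group of genes lost most or all of the side of the peak that lies before the transcription start. A listed start was found for 57 of the 77 core genes. In the 1 kb before it, 6 of 57 genes had a control peak and no Znhit1-CKO peak (10.5%, against 12.3% of protein-coding genes with a control peak there): Rpl10, Rplp0, Rpl27, Rpl38, Rps3 and Rps3a1. Less than 20% of that side remained at Rpl5, Rpl11 and Rps15a as well, so that 9 of 57 were this low (15.8%, against 15.4%). In the 1 kb after the start, 4 of 56 had lost all cover (7.14%, against 11.0%): Rplp0, Rps16, Rps2 and Rpl13a. The shares lay near those of all genes.

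The 5 lowest width ratios were those of Rpl27, Rpl38, Rpl5, Rps29 and Rps3a1. At Rpl27 the peak was 417 bp in Znhit1-CKO and 1098 bp in control (log2 ratio -1.40). It reached from 186 to 602 bp after the start in Znhit1-CKO, and from 390 bp before to 707 bp after the start in control. Rpl5 encodes a protein that joins the 5S rRNA and, with RPL11, binds and inhibits MDM2, the ubiquitin ligase of p53. Its peak was 680 bp in Znhit1-CKO and 1569 bp in control (-1.21), from 12 bp before to 667 bp after the start in Znhit1-CKO and from 828 bp before to 740 bp after it in control. Rpl11 had the same shape, with 17 bases before the start covered in Znhit1-CKO and 425 in control, and 554 bases after the start in Znhit1-CKO and 666 in control. Rps3, whose product lies at the entry of the mRNA channel, had a peak from 49 to 729 bp after the start in Znhit1-CKO and from 608 bp before to 711 bp after it in control. At Rps3a1 it was 514 bp in Znhit1-CKO and 1094 bp in control, and at Rps29, which has no listed start, 533 bp and 1196 bp. At Rpl27, Rpl5, Rpl11, Rps3, Rps3a1 and Rps29 a differential region lay on the control peak. At Rpl5 and Rpl11 it lay wholly within the Znhit1-CKO peak, and at Rpl27, Rps3 and Rps3a1 mostly so. These regions are all 400 bp wide, so this does not place a change within the kept part of the peak. At Rpl38 the 2 regions lay on other control peaks, before the start, which no Znhit1-CKO peak overlapped.

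**Figure D2:**
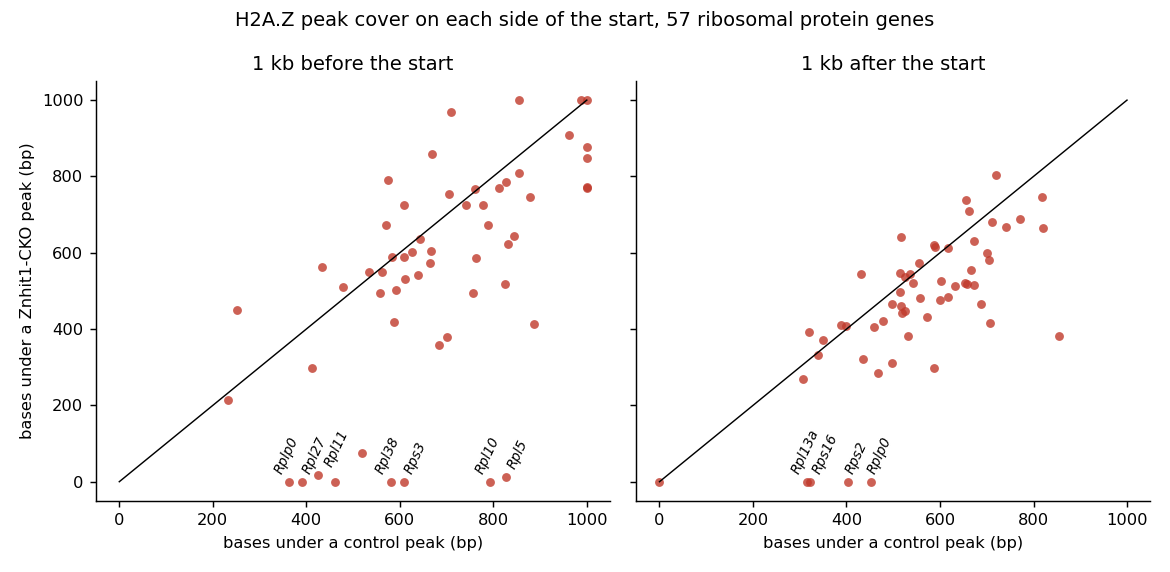
Each point is one of 57 core ribosomal protein genes, with the bases under control peaks on the x axis and under Znhit1-CKO peaks on the y axis, in the 1 kb before (left) and after (right) the listed transcription start. Most points follow the line of equal cover, and 6 genes before and 4 after the start have control cover and none in Znhit1-CKO.

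The promoters of Rpl27 and Rpl5 are shown as the sites where the control peak reached over the start and the Znhit1-CKO peak reached at most 12 bp upstream of it. The RefSeq (GRCm38.p6) windows are chr11:101441995-101442294 on the plus strand and chr5:107900278-107900577 on the plus strand, with the same capitals. That of Rpl27 holds CCGGAA, the reverse complement of the ETS-type motif, at 2 places just before the start, and that of Rpl5 holds the pyrimidine motif 20 bp before it. All 3 matches lay in the part no longer covered in Znhit1-CKO.
Rpl27: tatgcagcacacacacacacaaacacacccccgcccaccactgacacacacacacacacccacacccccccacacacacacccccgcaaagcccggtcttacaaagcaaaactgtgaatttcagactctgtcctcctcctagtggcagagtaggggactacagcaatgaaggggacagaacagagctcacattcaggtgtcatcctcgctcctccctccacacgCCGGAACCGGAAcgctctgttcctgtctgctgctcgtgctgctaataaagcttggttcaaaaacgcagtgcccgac
Rpl5: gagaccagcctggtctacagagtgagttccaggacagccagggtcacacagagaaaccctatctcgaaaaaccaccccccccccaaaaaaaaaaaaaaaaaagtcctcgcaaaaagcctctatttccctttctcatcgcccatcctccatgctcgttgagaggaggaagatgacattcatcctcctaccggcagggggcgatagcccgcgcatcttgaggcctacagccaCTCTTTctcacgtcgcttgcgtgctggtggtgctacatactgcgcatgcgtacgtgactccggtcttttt

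At some genes, in shares near those of all protein-coding genes, the single control peak was found as a pair of Znhit1-CKO peaks. The gap between them can be placed only at genes with a listed start, which Rplp1 lacks. At 9 of 80 genes (11.3%, against 9.85% of all genes) the widest control peak overlapped 2 Znhit1-CKO peaks, among them Rpl7a, Rpl28, Rpl36a, Rplp1, Rps12, Rps21 and Rpsa. Of 57 genes with a listed start, 6 had a gap between Znhit1-CKO peaks that reached within 500 bp of the start where control peaks left none (10.5%, against 8.91% of all genes). These gaps were 172 to 231 bp long. At Rpl28 the gap ran from -218 to -11 bp, at Rpsa from -229 to -7 bp, and at Rps21 from -246 to -16 bp relative to the start. At Rpl36a it ran from -149 to 43 bp, at Rpl7a from -140 to 31 bp, and at Rps12 from -151 to 51 bp. All 6 gaps lay on or directly before the start. Their median ran from -184.5 to 12 bp with a length of 205.5 bp, against -218 to 9 bp and 229 bp over the 1037 protein-coding genes with one. Rpsa encodes both a small subunit protein and a laminin receptor. With peaks of at least 500 bp alone, 1 of 77 genes (1.30%, against 4.77% of all genes) still had a pair. At Rpl28 the pieces were 348 and 307 bp, under a control peak of 1271 bp. A few genes had such a break in control already. At Rpl27a the gap was 283 bp in Znhit1-CKO and 160 bp in control, and at Rps16 control peaks left 168 bp, from -21 to 146 bp.

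**Figure D3:**
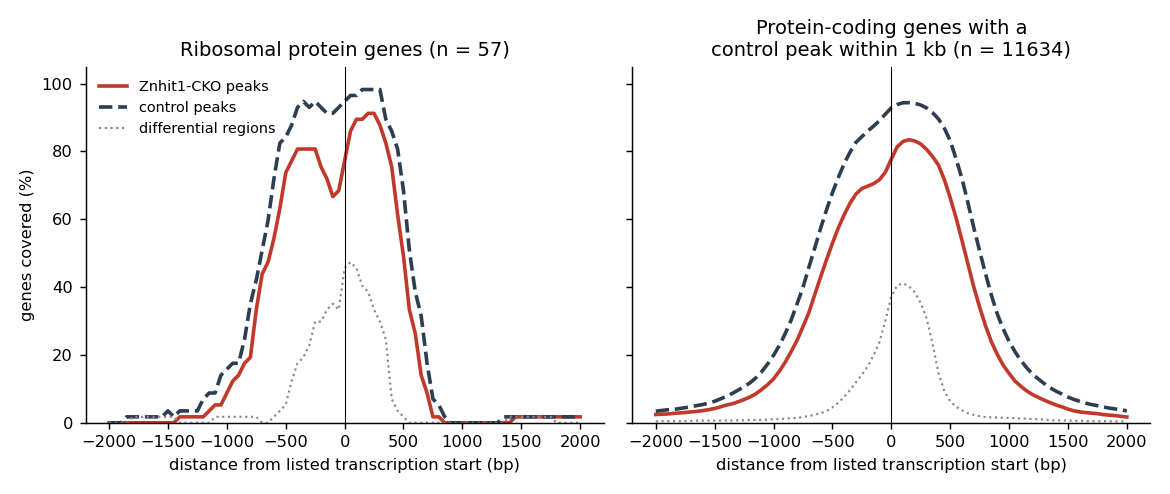
The share of genes covered by peaks is plotted against the distance from the listed transcription start in bp, for 57 core ribosomal protein genes (left) and for 11634 protein-coding genes with a control peak within 1 kb (right), with solid red for Znhit1-CKO peaks, dashed dark lines for control peaks and grey dots for differential regions. At -100 bp, 66.7% of ribosomal protein genes were covered in Znhit1-CKO and 91.2% in control, between a higher cover on either side.

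The 57 genes together show this dip. At 100 bp before the start 66.7% were under a Znhit1-CKO peak and 91.2% under a control peak, against 71.7% and 89.1% of all genes. The highest cover was 91.2% in Znhit1-CKO at 200 bp after the start and 98.2% in control at 150 bp after it. The start itself was under a Znhit1-CKO peak at 44 genes and under a control peak at 54 of 57. Of these 54, 10 were no longer covered (18.5%, against 16.7% of all genes). Cover extended further before the start than after it. In the 1 kb before the start the median cover was 588 bp in Znhit1-CKO and 668 bp in control, and in the 1 kb after it 484 bp and 555 bp. In control, 36 of 57 genes (63.2%) had more cover before the start than after it, while this held for 38.6% of all genes. In Znhit1-CKO it was 37 of 57 (64.9%), against 34.6%. The difference from all genes was not tested. At 22 of the 80 genes with a control peak, the start or end of another protein-coding gene lay within 1 kb of the widest one, and its part in this was not tested.

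The promoters of Rpl28, which had a gap, and Rps28, which kept an unbroken peak (671 bp in Znhit1-CKO and 762 bp in control), are shown for the sequences at their starts. The RefSeq (GRCm38.p6) windows are chr7:4792715-4793014 on the plus strand and chr17:33824513-33824812 on the minus strand. In the first, CTCTTT begins at the listed start, and in the second TCTCGCGA and its reverse complement overlap there.
Rpl28: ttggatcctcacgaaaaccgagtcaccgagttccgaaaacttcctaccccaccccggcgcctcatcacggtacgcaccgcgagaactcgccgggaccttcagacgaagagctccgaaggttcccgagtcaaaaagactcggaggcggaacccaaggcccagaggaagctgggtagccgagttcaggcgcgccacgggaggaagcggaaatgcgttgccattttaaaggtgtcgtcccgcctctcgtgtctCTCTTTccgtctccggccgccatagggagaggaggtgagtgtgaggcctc
Rps28: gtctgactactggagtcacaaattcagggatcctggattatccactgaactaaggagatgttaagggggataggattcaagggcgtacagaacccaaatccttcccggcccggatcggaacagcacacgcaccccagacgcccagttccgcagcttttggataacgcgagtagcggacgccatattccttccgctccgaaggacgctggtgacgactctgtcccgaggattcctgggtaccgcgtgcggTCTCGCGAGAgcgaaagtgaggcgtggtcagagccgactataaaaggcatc

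Over the 57 core promoters, 13 short motifs were counted on both strands, chosen with these promoters already seen. The pyrimidine motif CTCTTT was in 27 (47.4%, against 21.6% of 17492 protein-coding promoters), and CTTTCC, which can overlap it, in 27 (47.4%, 25.7%). The ETS-type motif TTCCGG was in 29 (50.9%, 19.1%), and CCGGAAG, which contains its reverse complement, in 23 (40.4%, 11.9%). TCTCGCGA was in 10 (17.5%, 1.51%), and the overlapping CTCGCGAGA in 6 (10.5%, 1.02%). The others were GGGCGG in 34 (59.6%, 46.3%), CTTTT in 32 (56.1%, 51.0%), GATAA in 17 (29.8%, 23.0%), ACGTGA in 9 (15.8%, 7.67%), TATAAA in 5 (8.77%, 13.3%), TGACGTCA in 5 (8.77%, 2.34%) and AAGATGGC in 4 (7.02%, 3.22%). The median promoter held 21 CpG (8 to 35), against 13 over all promoters. These counts describe letters in 300 bases and not bound factors.

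Differential regions lay at the ends of most of these genes. Of the 80 with a control boundary peak, 56 had one (70.0%, 58.7 to 79.7%), against 62.8% of all protein-coding genes with such a peak. It was 34 of 46 large subunit and 21 of 30 small subunit core genes. Genes with a region had a median log2 width ratio of -0.16 over 49 pairs, and those without one of -0.13 over 19. Rps6, Rpl10a and Rpl15 had a region although every base of the control peak was under a Znhit1-CKO peak. The regions gathered at the start. Their cover was highest 50 bp after it for the 57 genes (47.4%) and 100 bp after it for all genes (41.1%). In the 1 kb before the start 37 of 57 genes had a region (64.9%, against 46.4%), and in the 1 kb after it 30 (52.6%, against 54.4%). A gene counted on a side with any base of a region there, and some had few before the start (2 at Rps3 and 9 at Rpl5). More of these genes also had more control cover before the start than after it (63.2%, against 38.6%). The difference from all genes was not tested.

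The X-linked members are Rpl10, Rpl36a, Rpl39 and Rps4x. None of these 4 had a differential region, while 33.8% of all X-linked genes with a control peak at an end did. With 4 genes, an interval of 0 to 60.2% includes that share. Of the 4, 1 lost its peak, Rpl10, against 26.5% of X-linked genes. At Rpl39 it was 911 bp in Znhit1-CKO and 1152 bp in control. At Rps4x it was the wider in Znhit1-CKO, and at Rpl36a it was in 2 pieces of 605 and 573 bp in Znhit1-CKO and in 1 of 1222 bp in control.

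The paralogues whose symbols end in l were counted apart. Rpl10l, an autosomal retrocopy of Rpl10 that male meiosis requires in mice, and Rpl39l, a testis copy of Rpl39, each had a control peak over the start and none in Znhit1-CKO. The Rpl10l peak was 1262 bp (chromosome 12, 66283830 to 66285091) and reached from 690 bp before to 571 bp after the start. The Rpl39l peak was 1355 bp (chromosome 16, 10169258 to 10170612) and reached from 970 bp before to 384 bp after it. Each held a differential region, 441 to 42 bp before the start at Rpl10l and 562 to 163 bp before it at Rpl39l. The other paralogues kept their peaks. Rpl36al, a widely expressed copy of Rpl36a, had 1968 bp in Znhit1-CKO and 1674 bp in control, and Rps27l had 1424 bp and 1736 bp. Rpl3l, a muscle copy of Rpl3, had a small peak of 454 bp in Znhit1-CKO and 627 bp in control after its start, and a wider one at its far end, of 1134 bp in Znhit1-CKO and 1287 bp in control. Rpl32l had no peak in either list. In all, 2 of 5 paralogues with a control peak lost it (40.0%, exact interval 5.27 to 85.3%), against 3 of 80 ribosomal protein genes. With 5 genes, this interval includes the 11.5% of all protein-coding genes that lost theirs. A difference between the paralogues and either group was not tested. The paralogues that the rule took in, Rpl22l1 and Rpl7l1, are counted among the 80 and kept their peaks. Rpl22l1 had 1015 bp in Znhit1-CKO and 1396 bp in control, and Rpl7l1 had 1314 bp and 1470 bp.

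**Figure D4:**
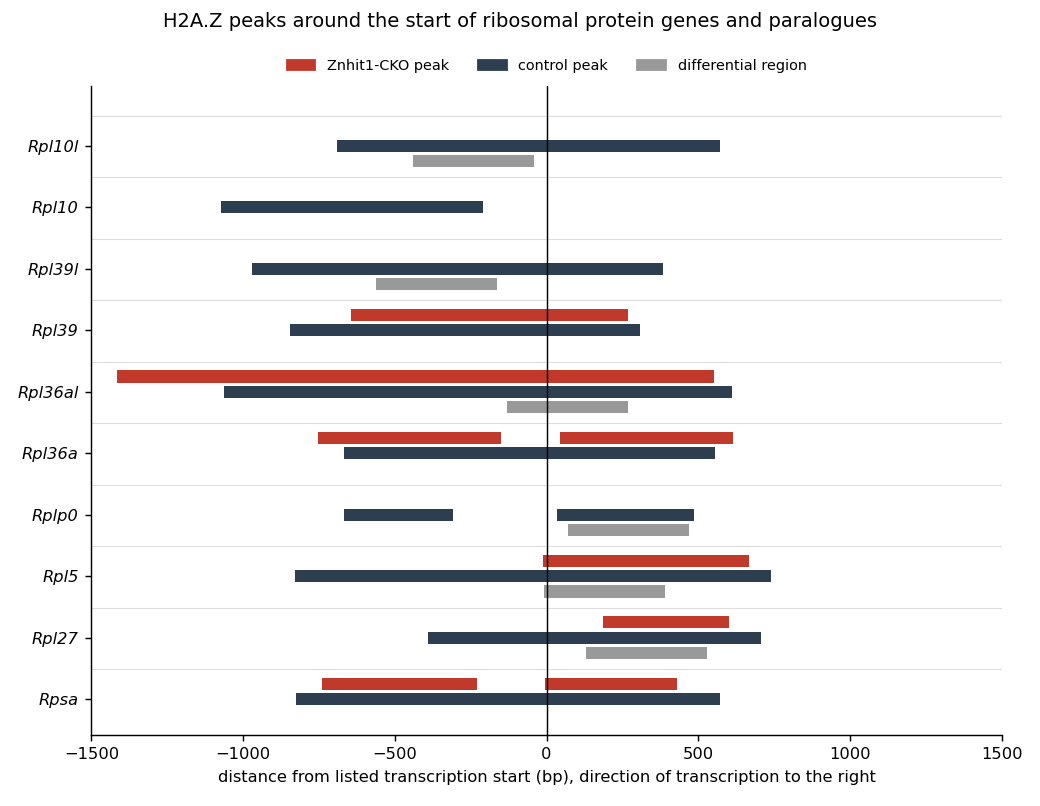
Peaks and differential regions are drawn to scale against the distance from the listed transcription start in bp, for 10 genes, with Znhit1-CKO peaks (red) above control peaks (dark) and differential regions (grey). Rpl10l and Rpl39l have a control peak over the start and no Znhit1-CKO peak, Rpl10 has a control peak before the start alone, and Rpl5 and Rpl27 keep the part after the start.

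The promoters of both pairs are shown because both copies lost the peak, while of their X-linked parents Rpl10 lost it and Rpl39 kept it. That of Rpl10 is printed above. The RefSeq (GRCm38.p6) windows are chr12:66284352-66284651 on the minus strand for Rpl10l, chr16:10169978-10170277 on the plus strand for Rpl39l and chrX:37085173-37085472 on the minus strand for Rpl39. Rpl39l holds 4 matches to TTCCGG or its reverse complement, Rpl39 holds 1, and Rpl10l holds none of the marked motifs. The CpG counts were 13, 17 and 17 for Rpl10l, Rpl39l and Rpl39.
Rpl10l: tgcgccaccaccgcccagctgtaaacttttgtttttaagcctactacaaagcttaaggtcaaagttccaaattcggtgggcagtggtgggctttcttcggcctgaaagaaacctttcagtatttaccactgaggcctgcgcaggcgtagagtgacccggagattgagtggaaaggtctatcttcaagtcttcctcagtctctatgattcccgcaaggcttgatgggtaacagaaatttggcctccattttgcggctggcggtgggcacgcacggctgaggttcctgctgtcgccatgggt
Rpl39l: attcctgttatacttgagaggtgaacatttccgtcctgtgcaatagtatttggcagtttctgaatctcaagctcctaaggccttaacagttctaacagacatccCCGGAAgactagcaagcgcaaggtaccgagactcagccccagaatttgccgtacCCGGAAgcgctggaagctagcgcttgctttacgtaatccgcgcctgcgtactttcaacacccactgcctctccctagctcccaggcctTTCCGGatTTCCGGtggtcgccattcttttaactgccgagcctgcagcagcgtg
Rpl39: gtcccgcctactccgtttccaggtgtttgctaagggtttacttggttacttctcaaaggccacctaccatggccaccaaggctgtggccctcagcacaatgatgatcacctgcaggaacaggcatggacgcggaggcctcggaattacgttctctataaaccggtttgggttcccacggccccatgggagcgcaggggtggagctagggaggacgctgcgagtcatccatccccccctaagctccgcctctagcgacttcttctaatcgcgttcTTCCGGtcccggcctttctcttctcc

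Some genes of ribosomal proteins have symbols outside the rule. Rack1, which encodes the small subunit scaffold protein RACK1, and Fau, which encodes a fusion of a ubiquitin-like protein with a ribosomal protein, kept their peaks. These were 1288 bp in Znhit1-CKO and 1360 bp in control at Rack1, and 987 bp in Znhit1-CKO and 1163 bp in control at Fau. Rps27a, a member whose product is a fusion with ubiquitin, had 1556 bp in Znhit1-CKO and 1703 bp in control.

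Genes that build ribosomes or work with them were taken from lists of translation factors, ribosome biogenesis factors and RNA polymerase I. The RNA polymerase I list holds genes of its subunits and of factors it works with (Rrn3, Taf1a, Taf1b, Taf1c, Taf1d, Ttf1 and Ubtf). None of 68 ribosome biogenesis genes with a control boundary peak lost it (upper limit 5.28%). Nor did any of 14 genes on the list of RNA polymerase I, which transcribes rRNA (upper limit 23.2%). Of 37 translation factor genes, 1 lost it (2.70%), Eif4a1, the gene of the RNA helicase of the cap-binding complex, whose control peak was 722 bp wide. A boundary peak was as common in these lists as at ribosomal protein genes (90.6% in Znhit1-CKO and 94.1% in control). It lay at 97.1% of ribosome biogenesis genes and 93.3% of the RNA polymerase I list in either genotype. For translation factor genes it was 97.3% in Znhit1-CKO and 100% in control. A differential region lay at 45 of 68, 8 of 14 and 24 of 37, which is 66.2%, 57.1% and 64.9%, against 62.8% of all genes. The control peak overlapped 2 or more Znhit1-CKO peaks at 11 of the 37 translation factor genes (29.7%, against 9.85% of all genes), among them Eif4e, Eif4g1 and Eif5a. At Eif4e, the gene of the cap-binding protein, the widest peak was 1305 bp in Znhit1-CKO and 2743 bp in control. It was 8 of 68 for ribosome biogenesis, among them the nucleolin gene Ncl (794 bp in Znhit1-CKO and 1800 bp in control), and 1 of 14 for RNA polymerase I, the catalytic subunit gene Polr1a.

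**Figure D5:**
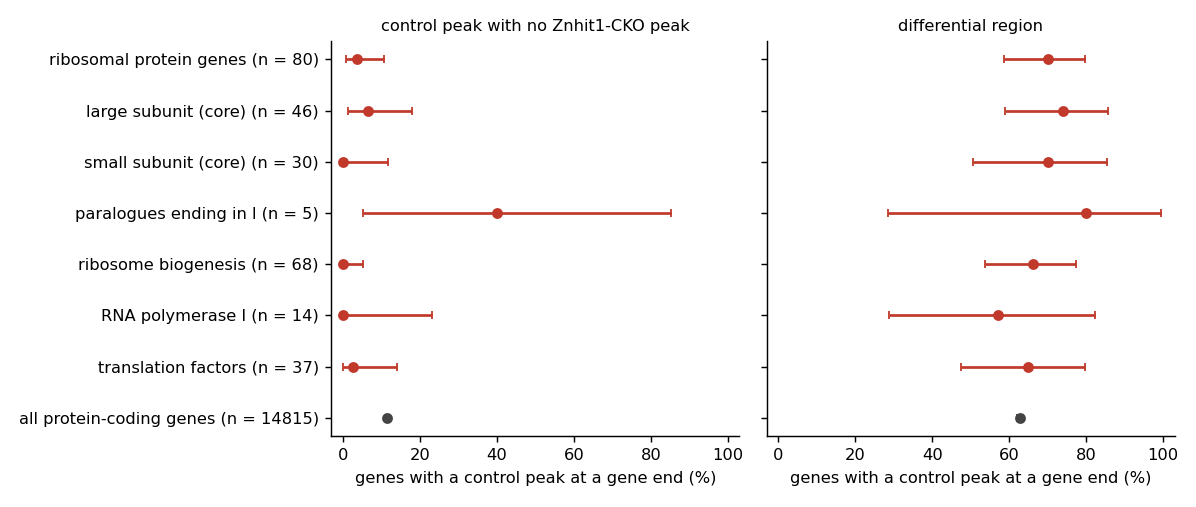
For each gene list, the share of genes with a control peak at a gene end that had no Znhit1-CKO peak there (left) and that had a differential region (right) is plotted in percent, with exact 95% binomial intervals and the number of genes with a control peak. Ribosomal protein, ribosome biogenesis, RNA polymerase I and translation factor genes lie between 0 and 3.75% on the left, and all protein-coding genes at 11.5%. The RNA polymerase I list holds subunits and the factors they work with. The core large subunit genes lie at 6.52% and the paralogues ending in l at 40.0%. On the left, the intervals of RNA polymerase I and translation factor genes and of the paralogues include the share of all genes. So do those of the core large and small subunit genes, the latter only just (upper limit 11.57%, against 11.55%).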

How the data were processed

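H2A.Z was profiled in 8 libraries, 2 per group. MACS2 2.2.4, BWA 0.7.17, Picard 2.20.7, cutadapt 2.5 and SAMtools 1.9 are listed, per the submitters' processing notes, with build mm10. The authors deposited 3 lists of positions in bp (chromosome, start, end) with no header or score. How replicates were pooled, which thresholds applied and which way a differential region moved is not stated there.

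Peaks and differential regions were assigned to a gene where at least 1 bp lay within 1000 bp of either end as given by RefSeq for GRCm38.p6, the patched form of mm10 with equal chromosome coordinates. Lost means a control and no Znhit1-CKO peak there. Starts, strand and promoters came from the RefSeq promoter table, first listed start per gene, found for 64 of 85 members. No entry was found for 21, among them Rpl3, Rpl7, Rpl8, Rpl17, Rpl21, Rpl23a, Rpl29, Rpl30, Rpl32, Rpl34-ps1, Rpl36, Rplp1, Rps14, Rps20, Rps27a and Rps29. Shares carry exact (Clopper-Pearson) 95% intervals. Peak counts at the 85 genes were checked against bedtools 2.31.1, with 0 differences. Work was done in Python 3.11.15 with pandas 2.3.3, scipy 1.17.1, numpy 2.4.6 and, for plots, matplotlib 3.10.9.

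The members, lists and naming rule were chosen with earlier results of these data known, so no set test was run. Named by rule were members without a control peak or with a lost one, the 5 at either extreme of control width and of width ratio, 5 split peaks, X-linked members, fixed single genes and paralogues. Rpl32l, Rps3, Rps15a, Rps28, the other split genes and those named from the other lists were chosen after their values were seen. Some genes that the rule names are not reported here by name, but stay in all counts.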

Additional observations from a re-analysis of the deposited data

How the results depend on the processing

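No paired analysis was possible because there is 1 peak list for each genotype, without replicate values, and for the same reason no replicate could be left out. Of 50 alternative values for 7 results, 42 were close to the value reported, 8 moved and none reversed. Close meant inside the 95% interval of the reported value or, for the shares of lost and split peaks, within a fixed ratio of it. A reversal could be called for the width ratio alone. The share of lost peaks (3.75%) was 6.33% with a 500 bp window (all genes 12.2%), 2.47% with a 2000 bp window (11.4%), 7.79% with peaks of at least 500 bp, and 18.8% where 50% of both peaks had to overlap. The share of control peaks in several pieces (11.3%) was 1.30% with peaks of at least 500 bp and 0% with the 50% overlap, which by construction 2 pieces can hardly meet. The median share of covered bases kept at gene ends (87.8%) was 93.3% with the 500 bp window. The share with a control peak (94.1%) was 98.7% for the core genes, which leave out 8 members. The first listed start and the overlap with the widest control peak were added after seeing the data. Except for the 50% overlap on pieces and the core genes, the cause was not tested. Depth per library is unknown, and the certainty of narrow peaks cannot be given.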
